A study of Homo sapiens with 6 samples.

Results

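The 10 genes described here encode interferon-induced proteins that act against viruses at membranes or as GTPases: IFITM1, IFITM3, BST2, MX1, MX2, RSAD2, SAMD9, SAMD9L, IFI6 and IFI27. Each of the 10 had 1 probe set that the platform annotation assigned to it alone, out of 18417 genes with a probe set of their own among 33297 probe sets. The 6 arrays came from 2 established Ewing sarcoma cell lines, A673 and SK-N-MC, grown from tumours that arise mostly in the bones of young people and carry a fusion of EWSR1 to an ETS family gene. In each line 1 array was made from cells transfected with an siRNA against DKK2 (siDKK2_1), 1 from cells with an siRNA against ITM2A (siITM2A_7 in A673, and in SK-N-MC an siRNA labelled siITM2A_1), and 1 from cells with a control siRNA labelled as non-silencing. The DKK2 protein is secreted and modulates Wnt signals, and ITM2A is a membrane protein whose knock-down was the other one made. All cultures were transfected, and no untransfected cells are among the samples. Every value below is a deposited level on the log2 scale, or a difference between 2 such levels, for which 1 unit is a 2-fold change.

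Cells that sense viral nucleic acid secrete type I interferon, which acts through its receptor, JAK kinases and the transcription factor complex ISGF3 on genes that carry an interferon-stimulated response element near their start. The proteins made from these genes stop viruses at different steps: entry through a membrane, copying of the genome, assembly, or release. The genes below are described with close relatives together.

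Promoter windows from RefSeq (build GRCh38.p14, 250 bases before to 50 bases after a transcript start) were at hand for 9 of the 10 genes, in 13 windows since MX1, RSAD2 and IFI27 have several starts; none was used for MX2. The core of the interferon element, GAAA and again GAAA with any 2 bases in between (10 letters), was searched for on both strands and was found in 8 of the 9 genes. Among all RefSeq windows of this length, 3.57% of 35116 windows and 4.38% of 27305 genes held it. SAMD9L held none, while its neighbour and relative SAMD9 held 1 match. In 5 of the 9 genes a window held it more than once, against 0.311% of all genes (6 of 13 windows, against 0.259% of all windows). A variant with the same repeats 1 base apart, GAAANGAAA, was found in 3 genes (MX1, RSAD2 and SAMD9), against 3.87% of all genes. The core of STAT sites, TTCNNNGAA, was found in 4 genes (IFITM1, BST2, MX1 and IFI27), against 9.38% of all genes. These are matches of letters, not measured binding.

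The stretches around these matches are shown because they are the sequence that genes of the set had in common apart from their annotation as interferon-induced. Each is written 5′ to 3′ on the gene's own strand, with the matching letters in capitals and 10 bases on either side. A match on the other strand reads TTTC first.
IFITM1 (chr11:314024-314053, plus strand): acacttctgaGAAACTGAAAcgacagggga
IFITM3 (chr11:320876-320905, minus strand, ending a second match): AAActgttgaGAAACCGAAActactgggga
BST2 (chr19:17405741-17405770, minus strand): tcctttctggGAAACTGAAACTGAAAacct
MX1 (chr21:41420559-41420588, plus strand): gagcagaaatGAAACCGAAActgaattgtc
MX1 at another start, variant core (chr21:41426116-41426144, plus strand): aggagctaggTTTCGTTTCtgcgcccgga
RSAD2 (chr2:6877622-6877651, plus strand): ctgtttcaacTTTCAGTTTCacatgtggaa
RSAD2 at another start, variant core (chr2:6865757-6865785, plus strand): gcgccggcggGAAACGAAAcccggaggga
SAMD9 (chr7:93118096-93118125, minus strand): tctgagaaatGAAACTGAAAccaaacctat
IFI27 (chr14:94110631-94110660, plus strand): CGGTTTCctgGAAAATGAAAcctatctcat

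IFI6, which had the largest difference of the set with the DKK2 siRNA (described further on), carried 3 matches in the 250 bases before its start, at -156 to -147, -115 to -106 and -93 to -84. The first 2 lie in near-copies of 1 stretch, which the full window lets one read off (capitals mark the core).
IFI6 (chr1:27672193-27672442, minus strand): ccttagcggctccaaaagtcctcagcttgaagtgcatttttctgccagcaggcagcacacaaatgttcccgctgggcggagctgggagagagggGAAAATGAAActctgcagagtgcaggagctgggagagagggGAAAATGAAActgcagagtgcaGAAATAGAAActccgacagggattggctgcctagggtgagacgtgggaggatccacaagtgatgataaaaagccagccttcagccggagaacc
In BST2 the 2 matches share 4 letters and 1 STAT core overlaps the first of them. In SAMD9 and at the first MX1 start a variant core overlaps the 10-letter core, and STAT cores overlap it in IFITM1, in IFI27 and at the third MX1 start.

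**Figure D1:**
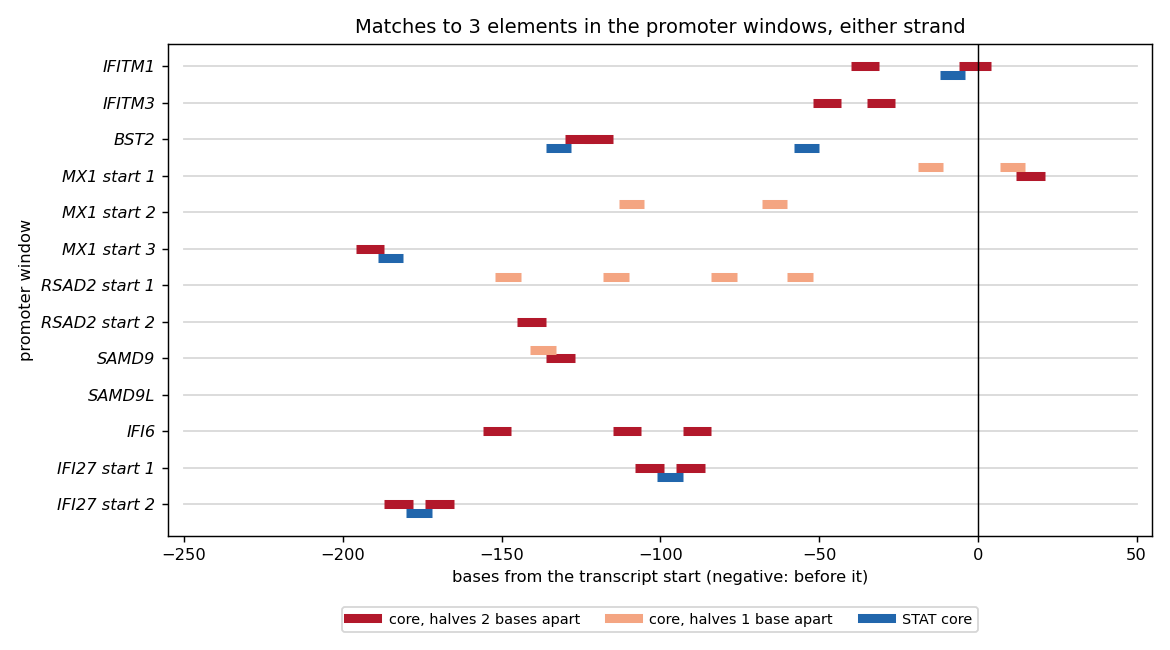
Matches to the interferon element core with its repeats 2 bases apart (dark red) or 1 base apart (light red) and to the STAT core (blue) in the 13 promoter windows of 9 genes. The horizontal axis gives bases from the transcript start, and every gene but SAMD9L has at least 1 match.

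Over all probe sets the arrays had medians of 3.35 to 3.44. Arrays of 1 line correlated at 0.986 to 0.991 and arrays of different lines at 0.959 to 0.965. DKK2 was at 7.73 in A673 cells with siDKK2 against 8.64 with control siRNA, and at 6.50 against 8.01 in SK-N-MC. ITM2A was at 5.03 with siITM2A against 8.52 with control siRNA in A673, and at 6.10 against 9.48 in SK-N-MC. The siDKK2 arrays had more ITM2A than the control arrays, at 9.21 for A673 and 9.66 for SK-N-MC. Of 11 measured Ewing sarcoma markers the list median was 5.44 to 6.25 on the 6 arrays. CD99 (9.79 to 10.73), PRKCB (7.69 to 8.44) and LIPI (6.78 to 7.82) were among the higher ones. NR0B1, also on this list, was not analysed. Between the lines 4 of the 11 passed as lower and 2 as higher in A673 (limma, 2707 and 2549 of 18417 genes). Of 15 markers of other cell types, the list median was 2.47 to 2.60 on every array, and PTPRC, LYZ and ALB stayed between 1.81 and 2.19. Not all 15 were low: 2 passed as higher in A673 than in SK-N-MC (limma, 13.8% of all genes). The largest gap of this list with control siRNA was 4.14. With 1 array per line and siRNA there was no test within a line, and each siRNA difference was replicated only across the lines. The labels name no repeat cultures, so a p-value reflects only the spread between these arrays. In bulk RNA, fewer cells expressing a gene and less RNA per cell cannot be told apart.

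The entry factors IFITM1 and IFITM3 had lower values with siDKK2 than with control siRNA, by several-fold in A673 cells and little in SK-N-MC. IFITM1, a transmembrane protein of the cell surface that hinders fusion of virus and cell membranes, stood at 6.43 with siDKK2, 8.93 with siITM2A and 9.62 with control siRNA in A673. In SK-N-MC it stood at 7.29, 7.75 and 7.72 in the same order. It was thus 9.13-fold lower with siDKK2 than with control siRNA in A673 cells and 1.35-fold lower in SK-N-MC. IFITM3, its relative in late endosomes and lysosomes, stood at 6.85 with siDKK2, 8.25 with siITM2A and 8.74 with control siRNA in A673. In SK-N-MC its values were 7.52, 7.63 and 7.75, so that the difference of siDKK2 from control was 3.70-fold in A673 cells and 1.17-fold in SK-N-MC. With siDKK2 both genes were lower in A673 than in SK-N-MC, whereas with the other siRNAs both were higher in A673. IFITM2, a close relative with a similar sequence, differed by -1.36 in A673 cells and -0.32 in SK-N-MC with siDKK2. How far the probes of these relatives take up each other's RNA was not tested.

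BST2, also called tetherin, holds budding virus particles at the cell surface. It stood at 3.03 with siDKK2, 4.96 with siITM2A and 5.90 with control siRNA in A673, and at 3.68, 4.16 and 4.48 in SK-N-MC. Both lines had the same order of siRNAs. The difference of siDKK2 from control was 7.30-fold in A673 cells and 1.74-fold in SK-N-MC, and only IFI6 and SAMD9 had a larger one in SK-N-MC.

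The dynamin-like GTPases MX1 and MX2, which assemble into rings around viral nucleoprotein or capsids, were among the genes with the widest gap between the lines. MX1 stood at 2.85 with siDKK2, 4.76 with siITM2A and 6.43 with control siRNA in A673, a 12.0-fold difference of siDKK2 from control on the deposited values. In SK-N-MC it stood at 2.89, 2.48 and 3.47, lowest with siITM2A, and the difference of siDKK2 from control was 1.5-fold. MX2, which acts at the nuclear envelope against retroviruses, stood at 2.28, 3.45 and 5.31 in A673 in the same order. In SK-N-MC it lay between 2.44 and 2.64 on all 3 arrays. The siDKK2 difference of MX2 on the deposited values was 8.16-fold in A673 cells and 1.05-fold in SK-N-MC. The MX2 levels in SK-N-MC and with siDKK2 in A673 were close to the median of the markers of other cell types (2.47 to 2.60), and MX1 (2.85), RSAD2 (2.80), SAMD9 (2.60) and SAMD9L (2.52) with siDKK2 in A673 were little above or within it. At such levels a larger difference may not be measurable, so these folds in A673 may be too small, and in SK-N-MC little room was left for MX2 and SAMD9L to be lower with an siRNA than with control.

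RSAD2, or viperin, an enzyme of the endoplasmic reticulum and lipid droplets that makes a chain-terminating nucleotide, stood at 2.80 with siDKK2, 3.4 with siITM2A and 5.04 with control siRNA in A673. In SK-N-MC its values were 2.93, 2.95 and 3.22. The siDKK2 difference was 4.73-fold in A673 cells and 1.23-fold in SK-N-MC. In A673 its difference from control was -2.24 with siDKK2 and -1.64 with siITM2A, and for no other member was the siITM2A difference as large a share of the siDKK2 difference.

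SAMD9 and SAMD9L are neighbouring genes on chromosome 7 whose large cytoplasmic proteins restrict poxviruses and slow protein synthesis. SAMD9 stood at 2.60 with siDKK2, 4.44 with siITM2A and 5.57 with control siRNA in A673. In SK-N-MC it stood at 3.95 with siDKK2, 3.95 with siITM2A and 4.80 with control siRNA, so both knock-downs gave the same value there. The siDKK2 difference of SAMD9 was 7.83-fold in A673 cells and 1.81-fold in SK-N-MC. SAMD9L had the smallest siDKK2 differences from control of the set. It stood at 2.52, 2.92 and 3.56 in A673 in the order siDKK2, siITM2A and control, and at 2.54, 2.22 and 2.54 in SK-N-MC. Its siDKK2 difference was 2.05-fold in A673 cells and 1.00-fold in SK-N-MC.

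IFI6 and IFI27 are small hydrophobic proteins of 1 family, IFI6 acting against flaviviruses at the endoplasmic reticulum and IFI27 found in mitochondria. IFI6 stood at 6.07 with siDKK2, 9.25 with siITM2A and 10.20 with control siRNA in A673, and at 6.25, 7.07 and 7.43 in SK-N-MC. Its difference of 17.5-fold in A673 cells and 2.27-fold in SK-N-MC was the largest of the 10 genes in each line. Only 5 of 18417 genes in A673 cells and 19 in SK-N-MC, IFI6 included, were as low or lower by this difference. IFI27 stood at 3.56, 4.97 and 6.17 in A673. Its SK-N-MC values were 3.61, 3.77 and 3.99. With siDKK2 it was 6.10-fold lower than with control siRNA in A673 cells, and 1.30-fold lower in SK-N-MC. For both genes the siDKK2 arrays of the 2 lines were close to each other while the control arrays were far apart.

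**Figure D2:**
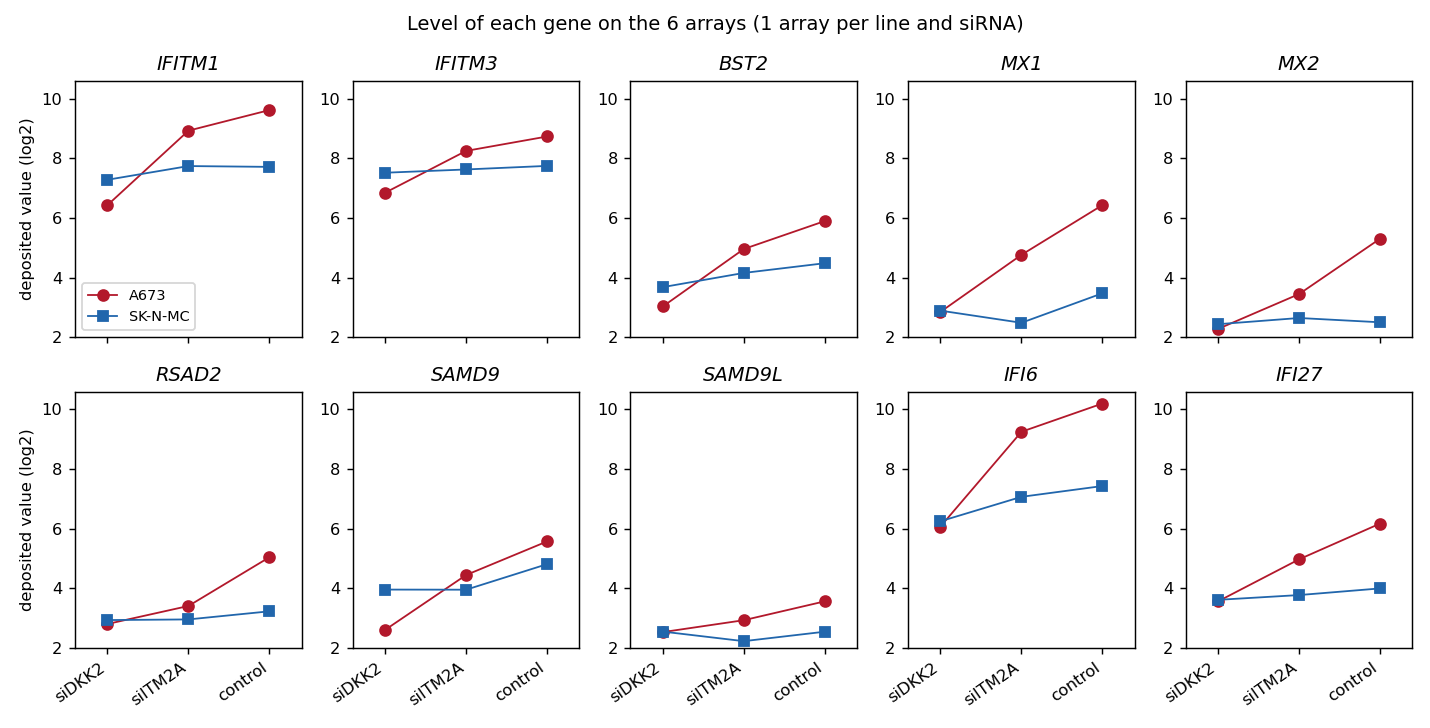
Deposited log2 level of each of the 10 genes with siDKK2, siITM2A and control siRNA in A673 (red circles) and SK-N-MC (blue squares), 1 array per point. In A673 every gene is lowest with siDKK2 and highest with control siRNA, and the lines meet or cross at siDKK2.

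With siDKK2 all 10 genes were lower than with control siRNA in A673 (57.1% of all genes were) and all 10 at least 2-fold lower (0.728% of all genes). In SK-N-MC 9 of 10 had lower values (51.2% of all genes did; 31.6% did in both lines), and IFI6 alone was at least 2-fold lower (0.201% of all genes). IFI6 was accordingly the 1 member at least 2-fold lower in both lines, against 0.0706% of all genes. The median difference of the 10 genes was -2.92 in A673 cells and -0.41 in SK-N-MC, beside -0.04 and -0.01 over all genes. After each array was centred on its median or quantile normalized again, SAMD9L came to -0.95 or -0.96 in A673, short of 2-fold. Its sign in SK-N-MC, 0.00 at 2 decimals, turned with centring.

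In the limma fit over all 6 arrays with the line as a block, no member passed the threshold of 0.05 on the adjusted p for siDKK2 against control, where 0.0109% of all genes passed in the lower direction. All 10 were lower at an unadjusted p under 0.05, as were 5.71% of all genes. The fitted differences ran from -0.51 to -2.66 with a median of -1.68, against -0.02 over all genes, and the limma adjusted p from 0.288 to 0.571. IFI6 differed by -2.66 ± 0.56 (SE, n = 2 lines; limma adjusted p = 0.288), BST2 by -1.83 ± 0.39 (0.288) and SAMD9 by -1.91 ± 0.42 (0.297). The unequal size of the difference in the 2 lines entered the SE, and whether the lines differ in response could not be tested with 1 array per line and siRNA. The count depended on the SK-N-MC arrays, since without the control array of that line 5 members passed (BST2, MX2, RSAD2, IFI6 and IFI27) at a median of -2.51, and without its siDKK2 array 7 passed (IFITM1, IFITM3, BST2, MX1, SAMD9, IFI6 and IFI27) at -2.62. In those fits 1 of the compared groups is a single A673 array, which is assumed to vary like the arrays of the other groups. Leaving out the A673 control array, the median was -0.82 and without the A673 siDKK2 array -0.63.

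**Figure D3:**
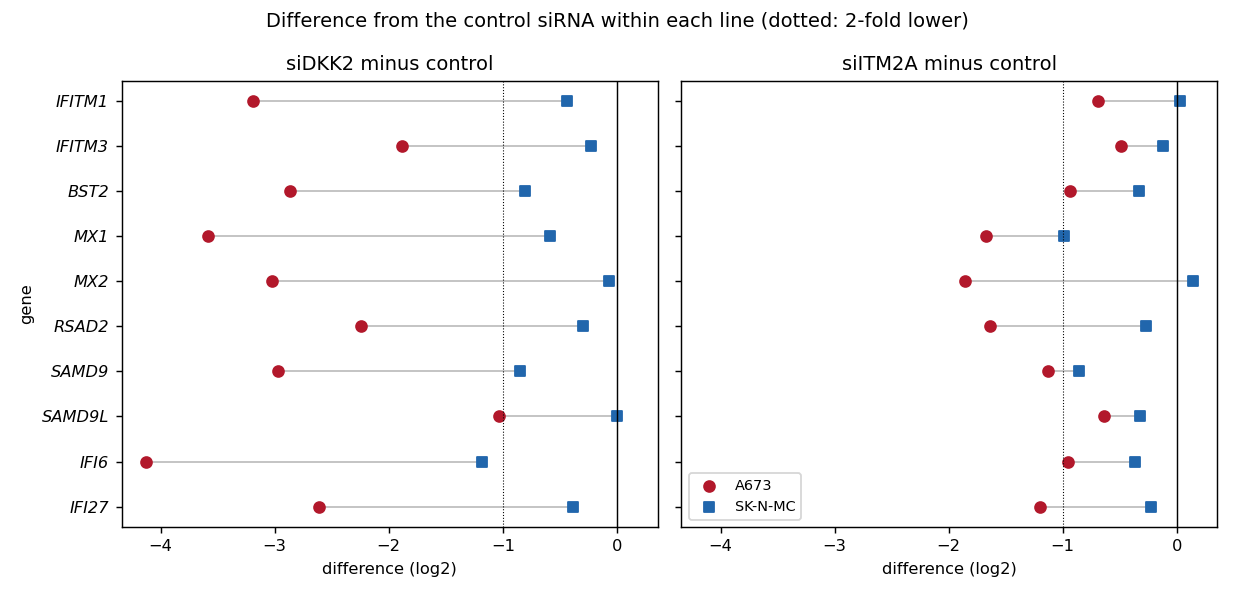
Difference from the control siRNA on the log2 scale for siDKK2 (left) and siITM2A (right), with A673 as red circles and SK-N-MC as blue squares. With siDKK2 the A673 points lie between -4.13 and -1.03 and the SK-N-MC points between -1.18 and 0.00, and for each gene the A673 point is the lower one.

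The control arrays are shared between the siDKK2 and the siITM2A differences, so the siITM2A values are given beside those of siDKK2 and not as a second result. The labels number the ITM2A siRNA differently in the 2 lines, and if these were different oligonucleotides, the lines do not replicate 1 siRNA. In A673 all 10 genes were lower with siITM2A, by -0.48 to -1.86 (57.1% of all genes were lower), with a median of -1.04 against -0.04 over all genes. MX2 (-1.86), MX1 (-1.67), RSAD2 (-1.64), IFI27 (-1.20) and SAMD9 (-1.13) were at least 2-fold lower (5 of 10, against 0.239% of all genes). In SK-N-MC the median was -0.29, MX1 (-0.99) and SAMD9 (-0.86) had the lowest values, and IFITM1 (0.03) and MX2 (0.14) were not lower. Thus 8 of 10 were lower in SK-N-MC (52.3% of all genes), these 8 also in A673 (30.7% of all genes in both lines), and 0 by 2-fold or more in SK-N-MC (0.076%), although MX1 came to -1.03 after centring. IFITM1 turned to a lower value there when the arrays were centred. None of the 10 passed in the fit (limma adjusted p 0.707 to 0.949, with 0.0109% of all genes passing in the lower direction), and MX1, RSAD2 and SAMD9 were lower at an unadjusted p under 0.05 (4.43% of all genes). The median of the fitted differences was -0.68, and it stood at 0.06 when the A673 control was left out and at -1.53 when that of SK-N-MC was.

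In A673 all 10 genes had the order siDKK2 below siITM2A below control, an order that 21.7% of all genes had in that line. In SK-N-MC 5 of 10 had it (IFITM3, BST2, RSAD2, IFI6 and IFI27), against 17.4% of all genes. Centring the arrays brought in IFITM1 and took out RSAD2 there.

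Set directly against siITM2A, the values with siDKK2 were lower for all 10 genes in A673, by -0.40 to -3.18 (50.5% of all genes were lower), and for 7 in SK-N-MC (49.4%; 27.5% in both lines), where MX1 (0.41), SAMD9L (0.32) and SAMD9 (0.00) were not lower. At least 2-fold lower in A673 were 8 of 10, all but RSAD2 and SAMD9L, against 0.505% of all genes, and in SK-N-MC 0 of 10, against 0.168%. IFI6 led in both lines, at -3.18 and -0.82, with a fitted difference of -2.00 ± 0.56 (SE, n = 2 lines; limma adjusted p = 0.416). No member passed in this fit (0.0109% of all genes passed in the lower direction), and IFITM1, IFITM3, BST2 and IFI6 were lower at an unadjusted p under 0.05 (4.35% of all genes). Without the SK-N-MC siDKK2 array 6 passed (IFITM1, IFITM3, BST2, MX1, SAMD9 and IFI6) at a median of -1.79, with the lone siDKK2 array assumed to vary like those of the other groups, and without the A673 siDKK2 array the median was 0.08, against -0.77 in the full fit.

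**Figure D4:**
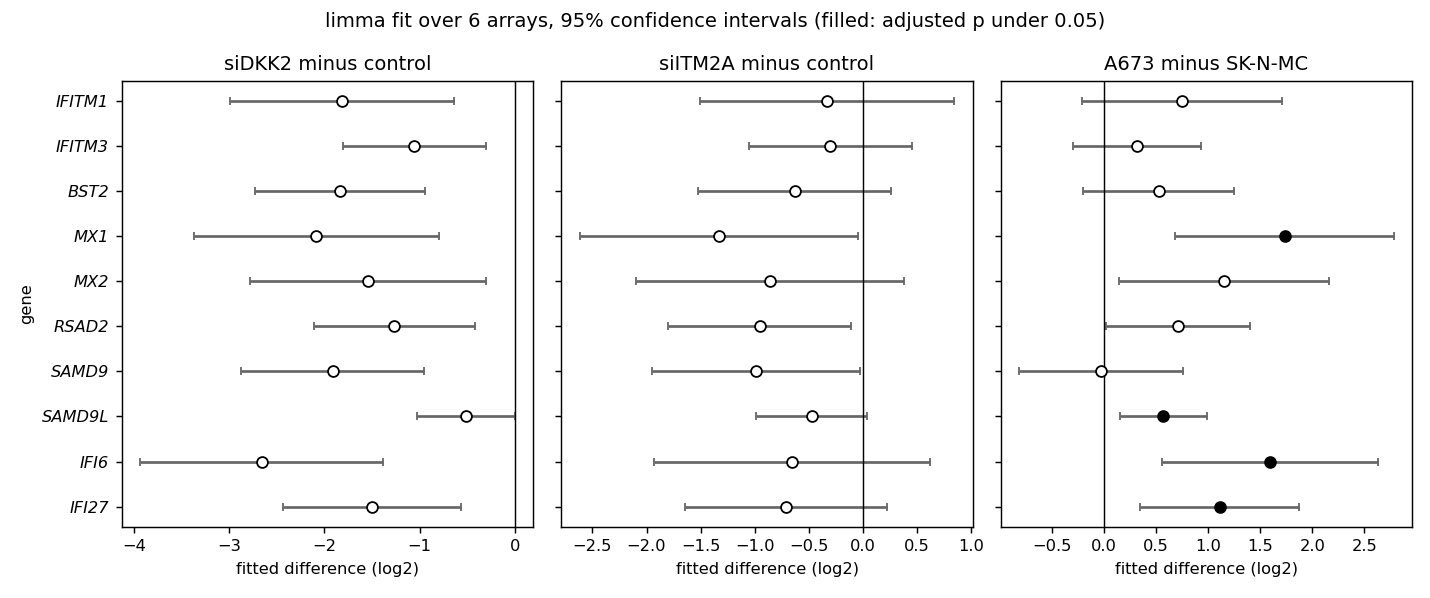
Fitted log2 differences with 95% confidence intervals from limma over the 6 arrays for siDKK2 against control, siITM2A against control, and A673 against SK-N-MC. Filled points passed an adjusted p of 0.05, which MX1, SAMD9L, IFI6 and IFI27 did between the lines and none of the 10 did for either siRNA.

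The lines themselves differed in these genes, with higher levels in A673 wherever DKK2 was not the target. With control siRNA all 10 genes were higher in A673 than in SK-N-MC, by 0.76 (SAMD9) to 2.96 (MX1), and with siITM2A by 0.45 (RSAD2) to 2.28 (MX1), which 32.5% of all genes were with both. The gap was at least 2-fold for 8 genes with control siRNA (5.23% of all genes) and for 4 with siITM2A (5.34%). With siDKK2 none was higher in A673. SAMD9 (-1.35), IFITM1 (-0.85), IFITM3 (-0.67) and BST2 (-0.65) were lower in A673 than in SK-N-MC, and the other 6 lay within 0.2 of each other in the 2 lines. SAMD9 alone was at least 2-fold lower in A673 (3.57% of all genes). SAMD9L, at -0.02, came out at 0.02 after centring and at 0.00 after quantile normalization. Higher in A673 with both of the other siRNAs and lower with siDKK2 were 10 of 10 members, against 7.92% of all genes. With siDKK2, MX1, MX2, RSAD2 and SAMD9L were at 2.28 to 2.93 in both lines, near the median of the markers of other cell types. At such levels the sign of a small gap says little, so for these 4 the count does not show a reversal. The gaps between the lines use the arrays already described for the siRNA differences, so they show the same values from the side of the lines.

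In the limma fit over all 6 arrays with siRNA as the block, 4 members were higher in A673, against 13.8% of all genes: MX1 by 1.73 ± 0.46 (SE, n = 3 pairs; limma adjusted p = 0.0215), IFI6 by 1.59 ± 0.45 (0.0301), IFI27 by 1.11 ± 0.33 (0.0371) and SAMD9L by 0.57 ± 0.18 (0.0479). MX2 (1.15 ± 0.44, limma adjusted p = 0.0911), IFITM1 (0.75 ± 0.42) and RSAD2 (0.71 ± 0.30) did not pass, and SAMD9 was at -0.03 ± 0.34. At an unadjusted p under 0.05 were 6 members, all higher in A673 (17.3% of all genes). The median over the 10 genes was 0.73, against -0.02 over all genes. Without the siDKK2 arrays all 10 were higher in A673, by 0.63 (SAMD9) to 2.62 (MX1), at n = 2 pairs. The limma adjusted p was 1.87e-05 to 0.0163, with 12.1% of all genes passing in that direction. The arrays left out are those in which no member was higher in A673, so these p-values are no separate support for a gap. The same fit results when either siDKK2 array is left out, since the other then has no partner. The median was then 1.34, and it was 0.25 without either control array and 0.69 without either siITM2A array, with no member past the threshold in those fits. The 4 calls were also lost without the siRNA block, and SAMD9L alone passed with robust moderation.

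**Figure D5:**
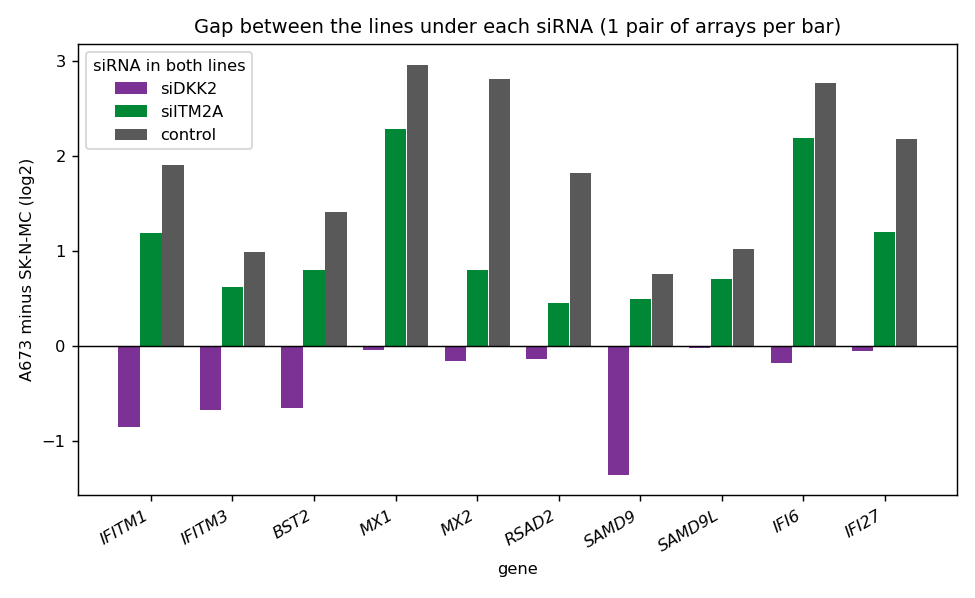
Level in A673 minus level in SK-N-MC on the log2 scale for each gene, with siDKK2 (purple), siITM2A (green) or control siRNA (grey) in both lines, 1 pair of arrays per bar. The green and grey bars lie above 0 for all 10 genes, and the purple bars lie at or below 0, that of SAMD9L turning sign with the scaling.

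Under the median over all genes were 7 of 10 members in A673 with siDKK2, 3 with siITM2A and 1, SAMD9L, with control siRNA. In SK-N-MC 7, 6 and 4 were under it in the same order. IFITM1, IFITM3 and IFI6 stayed above 6 on all 6 arrays, and for these 3 the difference in SK-N-MC, -0.43, -0.23 and -1.18, was measured well above the lowest values of the arrays. Background was not measured on these arrays as deposited.

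Other antiviral effectors also had lower values with siDKK2, more so in A673 than in SK-N-MC, a gap between the lines that was not tested. Of 50 measured genes on a list of further effectors, 27 were at least 2-fold lower with siDKK2 than with control siRNA in A673 cells (0.728% of all genes). In SK-N-MC 6 were (0.201%), and the median differences in A673 and SK-N-MC were -1.17 and -0.15. Over all genes 0 of the 50 passed in either direction (limma, 32 lower and 0 higher at an unadjusted p under 0.05, beside 5.71% and 2.97% of all genes). IFIT1, which binds foreign RNA, differed by -4.71 in A673 cells and -1.95 in SK-N-MC. OAS1, an oligoadenylate synthetase switched on by double-stranded RNA, differed by -4.63 and -1.66, IFI44L by -4.71 and -1.62 and IFI44 by -3.15 and -1.40. With siITM2A 7 of the 50 were at least 2-fold lower in A673 cells (0.239% of all genes) and 0 in SK-N-MC (0.076%).

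Upstream of the set, most interferon receptors and signalling genes differed little. Of 20 measured, 2 were lower with siDKK2 by 2-fold or more in A673 cells (0.728% of all genes) and 1 in SK-N-MC (0.201%). The medians were -0.09 and -0.06. IRF9, the DNA-binding part of ISGF3, differed by -1.93 in A673 cells and -1.29 in SK-N-MC (fit -1.61 ± 0.17, SE, n = 2 lines; limma adjusted p = 0.0566). USP18, which dampens receptor signalling, differed by -2.36 and -0.94, SOCS1 by 0.51 and 0.30 and IRF2 by -0.43 and -0.49. No gene of this list passed in either direction (limma, 3 lower and 1 higher at an unadjusted p under 0.05, beside 5.71% and 2.97% of all genes). Among 15 RNA and DNA sensors and adaptors RIGI differed by -2.81 and -1.16, CGAS by -0.74 and -0.86, MYD88 by -0.44 and -0.35 and TRAF3 by -0.29 and -0.29. None of the 15 passed (limma, 5 lower and 0 higher at an unadjusted p under 0.05, beside 5.71% and 2.97% of all genes).

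The interferon genes themselves were at low levels. The 16 measured ligands had list medians of 1.97 to 2.15 on the 6 arrays. IFNB1 was at 2.03 with siDKK2 against 1.80 with control siRNA in A673, and at 1.80 against 1.79 in SK-N-MC. IFNL2, singled out after its values were seen, differed by -1.40 and 0.10 with siDKK2. IFNL3 differed by 0.87 and 0.38 with siDKK2, IFNA16 by -0.18 and -0.28, IFNA13 by -0.30 and -0.13 and IFNE by -0.25 and -0.10. No ligand passed (limma, 0 lower and 1 higher at an unadjusted p under 0.05, beside 5.71% and 2.97% of all genes). Genes of related families or membrane compartments that interferon does not chiefly govern, such as dynamins, mitofusins and endosomal proteins, had medians near 0. These were -0.12 in A673 cells and -0.03 in SK-N-MC over 20 genes. Of these genes 0 were at least 2-fold lower in either line (0.728% of all genes in A673 and 0.201% in SK-N-MC). RAB5A of early endosomes differed by -0.53 and -0.62, MFN2 by -0.41 and -0.58, ATL3 by -0.62 and -0.34 and IFI27L2, of the IFI27 family, by -0.35 and -0.21. None of the 20 passed (limma, 3 lower and 0 higher at an unadjusted p under 0.05, beside 5.71% and 2.97% of all genes).

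Markers of other cell types did not shift as a list, with medians of -0.04 in A673 cells and 0.01 in SK-N-MC for siDKK2 against control over 15 genes. CD68 (-1.31 and -0.38) and ACTA2 (-0.84 and -0.62), which these lines express, had the lowest values, and PTPRC differed by 0.09 and 0.07 and PECAM1 by 0.14 and 0.17. Among 11 Ewing sarcoma markers the medians were 0.19 and -0.06, with STEAP1 at -0.98 and -0.23, NKX2-2 at 0.49 and 0.12, LIPI at -0.26 and -0.24 and CCK at 0.09 and 0.16. No gene of the 2 lists passed. At an unadjusted p under 0.05 (limma) 2 and 1 were lower and 0 and 0 higher, beside 5.71% and 2.97% of all genes.

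The 10 members followed each other over the 6 arrays. Each member's values correlated with the mean of the other 9 at 0.84 (SAMD9) to 0.98 (IFI27), as a description over 6 arrays that fall into 2 lines. By the same measure against the mean of all 10, the 5 closest of the 3059 other genes that spanned at least 1 log2 unit were CXCL10 (0.99), IFIT2 (0.98), PNPT1 (0.98), SP100 (0.98) and OAS1 (0.98). CXCL10, a chemokine that draws T cells, was at 2.80 with siDKK2, 5.27 with siITM2A and 7.07 with control siRNA in A673, and at 2.83, 3.76 and 3.91 in SK-N-MC. PNPT1, a mitochondrial RNA-degrading enzyme, had a narrower range, at 7.43, 8.21 and 8.76 in A673 cells and 7.80, 7.57 and 7.88 in SK-N-MC.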

How the data were processed

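Total RNA of 6 cultures was biotin-labelled and read on Affymetrix arrays with probes along whole transcripts, per the labels' protocols. The values are log2 levels per probe set, made by the authors with Affymetrix Expression Console and RMA (background correction, normalization between arrays and summary of probes), per the submitters' processing notes. The log2 scale was read from the range of 1.02 to 13.4; further settings were not given in the sources used here. Gene names came from the platform annotation, updated through Entrez numbers (1 symbol for 19460 probe sets, several for 1754, none listed for 12083). Where a gene had several probe sets, the highest mean was kept.

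limma 3.58.1 in R 4.3.3 (lmFit, eBayes) was fitted to 18417 genes and all 6 arrays with siRNA and line as terms, 2 residual degrees of freedom, and Benjamini-Hochberg adjustment over all genes. The lines pair the arrays, per the labels. Tested on simulated data (siDKK2 against control, 18417 genes), the fit recovered 2.8% of genes changed by 0.5 log2 units and 84.0% of those changed by 1, with 5.07% false among calls. In the simulation each changed gene changed equally in both lines, with a spread drawn from the fitted prior. The members' differences were unequal between the lines, so this recovery does not carry over to them. The members and gene lists were chosen with earlier results of these data known. Named genes are the members, the targets, the 5 genes closest in pattern, and up to 4 per list with the largest smaller-of-the-lines siDKK2 difference; CD99, PRKCB, LYZ, ALB, IFITM2, IFNB1 and IFNL2 were added after their values were seen. Alternatives were another moderation, scaling, filter, probe-set rule, block and each array left out. Precision is limited by the number of arrays.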

Additional observations from a re-analysis of the deposited data

Results flagged for a closer look

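The sign differed between the 2 lines for several values, each resting on 1 array per line and siRNA, so no difference was tested. With siDKK2 against control SAMD9L was lower in A673 and at 0.0036 in SK-N-MC. With siITM2A against control IFITM1 was lower in A673 and at 0.027 in SK-N-MC, and MX2 lower in A673 and at 0.14 in SK-N-MC. The SK-N-MC values of SAMD9L and IFITM1 were very small, and both turned lower when the arrays were centred.

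All 10 members were higher in A673 than in SK-N-MC with control siRNA, and the gap had the opposite sign with siDKK2: -0.85 for IFITM1, -0.67 for IFITM3, -0.65 for BST2, -0.041 for MX1, -0.16 for MX2, -0.13 for RSAD2, -1.35 for SAMD9, -0.017 for SAMD9L, -0.18 for IFI6 and -0.049 for IFI27. This turn was not tested, and the sign for SAMD9L flipped with either other scaling. With siDKK2, MX1, MX2, RSAD2 and SAMD9L were near the median of the markers of other cell types in both lines. At such levels the sign of a small gap says little.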

How the results depend on the processing

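In the 3 siRNA comparisons all 228 values of single members kept their sign and their side of the threshold. The settings were other moderations, scalings, filter, probe-set rule, sample choice and a fit without the line as a block. Only the scalings could move a sign, since every other setting left the members' fitted differences as they were. No member had passed in the main fits, so a side could change only by a member passing. Between the lines 4 members passed, against 0 with no replicate block (unpaired), 1 with robust moderation and 2 when only genes at or above the median level were tested, a setting that leaves out dim members. At 1.5-fold in place of 2-fold, 3 members were lower in both lines with siDKK2 (against 1), 2 with siITM2A (against 0) and 1 for siDKK2 against siITM2A (against 0). No share over all genes is given at 1.5-fold, so these counts show only that the rule moves them. At 2-fold, centring and repeated quantile normalization each gave 1 for siITM2A. Leaving out each array in turn gave 0 to 7 members past the threshold for siDKK2 against control, 0 to 6 for siDKK2 against siITM2A and 0 to 10 between the lines. The median with siITM2A ran from -1.53 to 0.063, between the lines from 0.25 to 1.34, and for siDKK2 against siITM2A from -1.79 to 0.08. Signs turned for siITM2A against control in IFITM1 (-1.20 to 0.54), IFITM3 (-0.81 to 0.20), BST2 (-1.30 to 0.037), MX2 (-2.10 to 0.38), IFI6 (-1.54 to 0.23) and IFI27 (-1.51 to 0.089). They also turned for siDKK2 against siITM2A in MX1 (-2.08 to 0.58), MX2 (-1.67 to 0.29), RSAD2 (-0.95 to 0.32), SAMD9 (-1.91 to 0.071), SAMD9L (-0.48 to 0.40) and IFI27 (-1.65 to 0.084), and between the lines in IFITM3 (-0.024 to 0.80) and SAMD9 (-0.43 to 0.63). Beyond fewer arrays or genes, the cause was not tested. Signal over background was not measured.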
